A study of Rattus norvegicus with 16 samples.

Results

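The lungs of spontaneously hypertensive rats and of Sprague Dawley rats were compared after exposure of both to sulfur dioxide (SO2). The comparison used 8 of the 16 arrays in the series, chosen by the source label alone: 4 of hypertensive rats in SO2 and 4 of Sprague Dawley rats in SO2. All 8 measured total RNA of lung with a biotin label, and the other 8 arrays held the same strains in air, 4 of each. The comparison was described across 8060 genes tested, of 10411 with 1 symbol on the array. No label states the dose or duration of the exposure, the time of sampling, or the age or sex of the rats (not given in the sources used here). Replicates carry biological replicate numbers in the labels, without saying that each is 1 animal, so p-values measure only the spread between these samples, which may in part be technical. By its title the study treats the hypertensive rat as an experimental model for SO2 injury of the airways, and the comparison asks how the lung of this strain differed from that of the control strain under the same gas.

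The spontaneously hypertensive rat is an inbred strain selected for high blood pressure, and the Sprague Dawley rat is an outbred stock, so animals of the first share nearly all alleles and animals of the second do not. SO2 is an irritant gas that dissolves in the fluid lining the airways and forms sulfite, which sulfite oxidase (Suox) turns into sulfate. In the airways the gas provokes cough, mucus, epithelial injury and inflammation, and club cells, rich in cytochrome P450 enzymes, macrophages and the fluid's antimicrobial proteins form part of the response to inhaled irritants. A strain difference measured in SO2 holds both what differs between the strains at rest and what differs in their reaction, so the same strain difference in air is given after the results in SO2.

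Signals are deposited intensities on a linear scale. Differences are hypertensive minus Sprague Dawley on the scale log2(signal + 16), with their standard error (SE), and a probe set was called at a limma p under 0.05 after Benjamini-Hochberg adjustment over the 11106 probe sets tested. The 8 arrays had median signals from 251.9 to 281.8, and their log2 values correlated at 0.939 to 0.962 within groups and 0.933 to 0.965 between groups. The ratio of 3 prime to 5 prime actin signal, a sign of RNA quality, was 2.14 ± 0.77 in hypertensive and 1.91 ± 0.689 in Sprague Dawley arrays (SD, n = 4). It was highest in hypertensive SO2 replicate 1 (3.12) and Sprague Dawley SO2 replicate 2 (2.94). The lung label was borne out by its markers: surfactant protein C (Sftpc) had signals of 24000 to 45110 and the club cell protein Scgb1a1 24040 to 36620, at percentile 100 of every array, and the lowest of 8 markers, the alveolar type I water channel Aqp5, was at percentile 96.4 or higher. In air, 1 array went against its label on the genes described here: the array labelled Sprague Dawley air replicate 2 lay nearer to the hypertensive mean on 61 of the 79 probe sets called in SO2. It is in neither SO2 group, and values in air are given with and without it.

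In SO2 a limited set of genes was called different between the strains, several of them by large amounts. Small differences were mostly below reach: on simulated data the fit called 17 of 67 probe sets shifted by 0.5 on the log2 scale and 49 of 67 shifted by 1. The calls are therefore not a count of all differences. Of 11106 probe sets, 79 were called (0.711%), 39 higher in hypertensive rats (0.351%) and 40 lower (0.36%). At the level of genes, with 1 probe set per gene, 52 of 8060 were called (0.645%), 23 higher and 29 lower. The groups' arrays did not overlap for 37 of the 39 higher and all 40 lower probe sets, against 5.58% of all probe sets (2.82% with the hypertensive arrays above and 2.76% with them below). Before adjustment, 967 probe sets had a p under 0.05 (8.71%). Differences passed 1 on the log2 scale for 26 higher and 25 lower probe sets, and passed 3 for 4 higher and 3 lower. The last adjusted p inside the threshold was 0.0497 and the first outside 0.054. Without hypertensive SO2 replicate 3 the number called was 51, and without any other SO2 array it lay between 53 and 90. No called difference moved by over 1.5 times when 1 array was left out. The median difference over all probe sets was 0.0004.

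**Figure D1:**
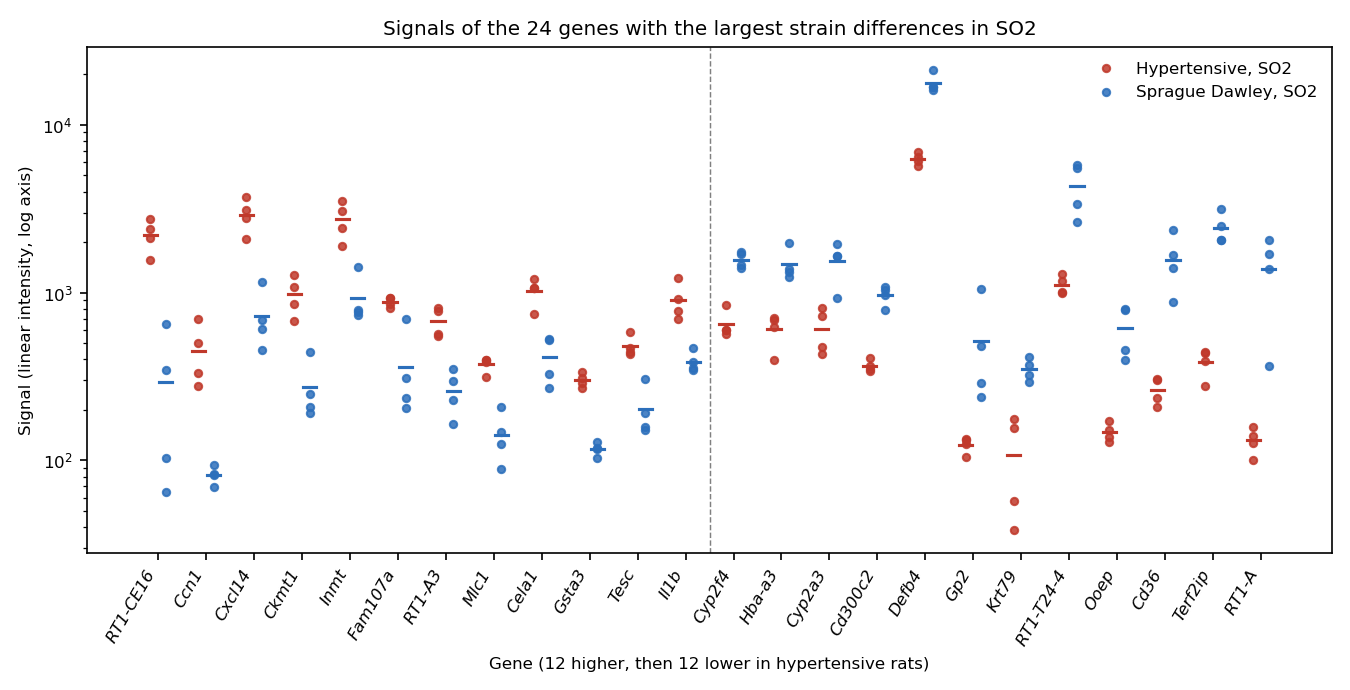
Signal (linear intensity, log axis) of each SO2 array for the 12 called genes with the largest differences upward and the 12 downward whose groups do not overlap; points are arrays, 4 per group, and bars are group means. Red points (hypertensive) lie wholly above blue points (Sprague Dawley) from RT1-CE16 to Il1b and wholly below them from Cyp2f4 to RT1-A, with RT1-CE16 at a mean of 2199 against 292 and RT1-A at 131 against 1378.

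Genes of the major histocompatibility complex (MHC) class I, called RT1 in the rat, showed some of the largest differences, in both directions. Class I molecules carry peptides from inside the cell to its surface for inspection by cytotoxic T cells, and their genes are many, similar and highly variable between strains. Of 11 class I genes tested, 2 were called higher (RT1-CE16, RT1-A3) and 2 lower (RT1-A, RT1-T24-4). Over all 8060 genes 0.285% were called higher and 0.36% lower. The median of the list was 0.33, beside 0.0005 over all genes. The promoters of both higher genes are shown, and those of the 2 called lower are not, so the pair does not stand for the family. They are the 100 bases before the transcription start site of the RefSeq assembly GRCr8, which is of another strain. TATAAA and CCAAT are in capitals where a search of both strands found them.
RT1-A3, chr20:4849351-4849450, plus strand: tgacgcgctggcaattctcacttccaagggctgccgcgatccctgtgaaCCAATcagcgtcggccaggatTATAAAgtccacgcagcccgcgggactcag
RT1-CE16, chr20:3265444-3265543, minus strand: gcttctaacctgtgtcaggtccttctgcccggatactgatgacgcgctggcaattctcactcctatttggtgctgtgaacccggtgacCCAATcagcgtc
They share a run of 22 bases, tgacgcgctggcaattctcact. TATAAA is in 5.78% and CCAAT in 17.1% of 33469 promoters over the same window. A match is a description of letters and was not tied to binding.

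RT1-CE16 (1370463_x_at) had signals of 1554, 2742, 2108.5 and 2389 in hypertensive rats and 652, 64.7, 103 and 346 in Sprague Dawley rats. Every hypertensive array was above every Sprague Dawley array, and the latter ranged from 64.7 to 652. The difference was 3.31 (SE 0.50, adjusted p = 0.0058). With limma's robust prior, which lets the spread of a single probe set lie apart from the rest, the call of RT1-CE16 was lost (adjusted p = 0.12). RT1-A3 (1371213_at) gave 552, 781, 806 and 568 against 297, 228.5, 164 and 352, a difference of 1.35 (SE 0.22, adjusted p = 0.0087). In the opposite direction, RT1-A (1370429_at), named for the classical class I locus, had 127, 158, 139 and 101 in hypertensive and 365, 1696, 2065 and 1387 in Sprague Dawley rats. The hypertensive arrays were tight and low while 1 Sprague Dawley array lay far below the other 3, and the difference was -3.01 (SE 0.40, adjusted p = 0.0021). For RT1-T24-4 (1389734_x_at) signals were 992, 1003, 1164 and 1283 against 3351, 5731, 2641 and 5516, a difference of -1.87 (SE 0.22, adjusted p = 0.00055). Probe sets ending in x_at share probes with other sequences, so a signal here may come from more than 1 class I gene. Among the other class I genes, RT1-CE5 was 1.41 higher (adjusted p = 0.087) and RT1-T24-3 1.42 higher (adjusted p = 0.39), neither called, and beta-2 microglobulin (B2m), the shared light chain, had mean signals of 17230 and 17370. The genes for peptide transport and loading (Tap1, Tap2, Tapbp, immunoproteasome subunits) gave no call among 14 tested, with a median of 0.02.

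MHC class II genes, which present antigen taken up from outside the cell, gave no call among 8 genes, each represented by 1 probe set, with a median of -0.18. A second probe set of RT1-Ba, chosen after its values were seen, was called lower with means of 543 ± 90.8 against 1286 ± 419 (SD, n = 4) and a difference of -1.16 (adjusted p = 0.035). The brighter probe set of the same gene was not called and pointed the other way, at 0.46 (adjusted p = 0.39). The call was lost without each of 7 of the 8 arrays in turn.

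Among probe sets with 1 symbol the largest difference was in Mx2, an interferon-induced GTPase that acts against viruses, at a probe set (1369202_at) chosen after its values were seen. Hypertensive arrays gave 933, 857, 1181.5 and 1098 and Sprague Dawley arrays 43.0, 60, 44.6 and 29.2, the latter below the 30th percentile of each array. The groups stood far apart, by 4.11 (SE 0.21, adjusted p = 1.3e-07). The second probe set of Mx2 was 0.80 higher and not called (adjusted p = 0.11), with means of 504 against 289. Of 21 interferon response genes tested, with that second Mx2 probe set standing for the gene, 0 were called, 11 were above 0 and the median was 0.22. Without hypertensive SO2 replicate 4 this median was -0.02. Arrays of the strains did not overlap for 6 of the 21 genes with hypertensive rats higher and for 1 with them lower. Over all genes the counts were 225 and 226 of 8060, and the comparison carries no test. Irf7, the transcription factor that amplifies the interferon response, was at 1.01 (adjusted p = 0.063), Mx1 at 0.71 (adjusted p = 0.12) and Bst2 at -0.71 (adjusted p = 0.57). The interferon gamma receptor chain Ifngr1, chosen after its values were seen, was called lower at -0.62 (SE 0.11, adjusted p = 0.018), with means of 1938 ± 54.7 against 3008 ± 361. Its call was lost without each of 5 arrays in turn.

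Cytokine and chemokine genes differed singly, Il1b and Cxcl14 upward and Cx3cl1 downward. Interleukin 1 beta (Il1b, 1398256_at), a fever-inducing cytokine made mainly by macrophages and neutrophils, was higher in hypertensive rats, with signals of 697, 772, 1222 and 916 against 344, 355, 465 and 387. No array of one strain reached the other, and the difference was 1.16 (SE 0.18, adjusted p = 0.0063). The chemokine Cxcl14 (1388485_at), which epithelium makes and which draws monocytes and dendritic cells, gave 2078, 3689, 3102 and 2789.8 against 686.5, 452, 608 and 1156, a difference of 2.04 (SE 0.24, adjusted p = 0.00068). Fractalkine (Cx3cl1, 1368200_at), a membrane-bound chemokine of endothelium and epithelium, was lower, at 412, 461, 416.5 and 575 against 733, 882.5, 954 and 835, a difference of -0.85 (SE 0.15, adjusted p = 0.013). Its call was lost without hypertensive SO2 replicate 3 (-0.80, adjusted p = 0.053) and without Sprague Dawley SO2 replicate 3 (-0.80, adjusted p = 0.057). Of 19 genes in the list of inflammatory cytokines and chemokines, 1 was called in each direction (Il1b and Cx3cl1), 11 were above 0 and the median was 0.02. The marker lists of cells that make Il1b gave no call: 16 macrophage genes had a median of -0.02, and 7 neutrophil genes 0.06, among them S100a8 at 1.06 (adjusted p = 0.11) and S100a9 at 0.89 (adjusted p = 0.22). Their summed signals were 25709 to 31446 (hypertensive) and 27147 to 32794 (Sprague Dawley) for macrophages, and 6035 to 9333 and 5268 to 10996 for neutrophils. Their part in the result was not tested. In bulk tissue, fewer cells of a type and less RNA per cell cannot be told apart.

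Stat3, the transcription factor that carries the signal of interleukin 6 and its relatives, was lower in hypertensive rats. At probe set 1370224_at signals were 1531, 863, 895 and 1701 against 2501, 2995, 2549.8 and 2489. The hypertensive arrays fell into a higher and a lower pair, all below the Sprague Dawley arrays, and the difference was -1.13 (SE 0.20, adjusted p = 0.015). Without hypertensive SO2 replicate 2 or 3 or Sprague Dawley SO2 replicate 4 the adjusted p was 0.050, 0.051 and 0.051, with differences of -0.98, -0.99 and -1.15. The second Stat3 probe set was at -0.47 and not called (adjusted p = 0.42). Of 14 acute phase and interleukin 6 response genes Stat3 alone was called, 9 were below 0 and the median was -0.29. Neither the receptor chain Il6st (-0.15) nor the feedback inhibitor Socs3 (0.24) was called, and the acute phase proteins Lcn2 (-0.62) and C3 (-0.39) were not called either. The adaptor Stap2 was at -1.58 and not called (adjusted p = 0.11). Runx1, a transcription factor of blood cells, and Mst1, a serum protein that acts on macrophages, were both chosen after their values were seen and were called lower, at -0.90 (adjusted p = 0.014) and -1.07 (adjusted p = 0.0099). The call of Runx1 was lost without each of 3 arrays in turn (adjusted p up to 0.056).

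Among genes of surface defence, epithelium and myeloid cells, Defb4, Cd300c2, Gp2 and Krt79 were lower in hypertensive rats. The beta-defensin Defb4 (1387960_at), an antimicrobial peptide secreted by airway epithelium, had signals of 5717, 6107, 6390 and 6894 in hypertensive rats and 16081, 16846, 16801 and 21205 in Sprague Dawley rats. All hypertensive arrays lay far below all Sprague Dawley arrays, by -1.49 (SE 0.11, adjusted p = 5.9e-06). Defensins form a family of similar genes, so probes may be shared. Cd300c2 (1373889_at), an immunoglobulin-like receptor of myeloid cells, gave 363, 343, 350.2 and 405 against 1073, 1033, 968 and 783.5, tight in both strains, a difference of -1.35 (SE 0.14, adjusted p = 0.00019). Glycoprotein 2 (Gp2, 1386933_at), a receptor for bacteria on specialised epithelial cells, gave 104.5, 135, 133 and 124.5 against 1055, 238, 291 and 477.5. The Sprague Dawley arrays ran over a wide range, and the difference of -1.69 (SE 0.35, adjusted p = 0.047) lost its call without each of 6 arrays in turn, with adjusted p up to 0.155 and differences from -1.97 to -1.27. Krt79 (1377246_at), a keratin of squamous epithelium, was at 38.7, 157, 56.9 and 176 against 322, 412.5, 368 and 293, a difference of -1.75 (SE 0.36, adjusted p = 0.046). Its call was also lost without each of 6 arrays, with adjusted p up to 0.14. The list of basal and squamous epithelium gave no call among 8 genes (median -0.15).

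The fatty acid translocase Cd36 (1367689_a_at), which takes up long-chain fatty acids and, on macrophages, oxidised lipid, was among the genes lowest in hypertensive rats relative to Sprague Dawley rats. Cd36 is known to be defective in hypertensive rats of some colonies. Signals were 209, 234, 300.5 and 305 against 1395, 875, 2345 and 1681. The highest hypertensive array, at 305, lay well below the lowest Sprague Dawley array, at 875, and the difference was -2.45 (SE 0.24, adjusted p = 0.00013). Of 28 genes of fatty acid uptake and oxidation Cd36 alone was called, 15 were above 0 and the median was 0.01. Of 15 adipocyte genes 2 were called, Cd36 lower and the carbonic anhydrase Car3 higher, with 11 above 0 and a median of 0.15. Summed adipocyte signals were 8164 to 9455 in hypertensive and 7749 to 10409 in Sprague Dawley arrays. Car3 (1367896_at), an enzyme abundant in fat and muscle, gave 677.5, 676, 533 and 463 against 261, 306, 275 and 270, without overlap, a difference of 1.02 (SE 0.16, adjusted p = 0.0072). Its second probe set was 1.06 higher and not called (adjusted p = 0.40), and with its probe sets averaged Car3 was not called (adjusted p = 0.072). The part of fat in these results was not tested.

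Among enzymes that process foreign chemicals, Cyp2f4 and Cyp2a3, a pair of cytochrome P450 genes of the airway, were called lower in hypertensive rats; on chromosome 1 they have 0 tested genes between them. Their promoters are shown because both genes were called lower in hypertensive rats in SO2 and lie side by side among tested genes. They are the 100 bases before the start site in GRCr8, with matches to TATAAA or CCAAT in capitals (ATTGG is CCAAT on the other strand).
Cyp2a3, chr1:91299484-91299583, plus strand: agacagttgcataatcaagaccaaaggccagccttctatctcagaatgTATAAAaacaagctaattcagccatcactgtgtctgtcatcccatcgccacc
Cyp2f4, chr1:91543668-91543767, plus strand: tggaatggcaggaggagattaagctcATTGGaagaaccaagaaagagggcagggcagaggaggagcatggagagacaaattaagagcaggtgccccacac
The longest run the pair shared was 5 bases. Cyp2f4 (1368608_at), an enzyme of club cells, had signals of 838, 600.4, 567 and 599 against 1695.5, 1460.2, 1737.5 and 1399, a difference of -1.26 (SE 0.15, adjusted p = 0.00057). Cyp2a3 (1369136_at), an enzyme of the respiratory tract that oxidises nitrosamines, had 721, 476, 808 and 427.5 against 927, 1662, 1936 and 1656. Its lowest Sprague Dawley array came within reach of the highest hypertensive array without overlap, and the difference was -1.32 (SE 0.24, adjusted p = 0.018). The call of Cyp2a3 was lost without hypertensive SO2 replicate 2 or 4 or Sprague Dawley SO2 replicate 3 or 4, with adjusted p of 0.060 to 0.083 and differences of -1.27 to -1.17. Of 29 cytochrome P450 and related oxidase genes these 2 alone were called, 15 were above 0 and the median was 0.04.

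In the opposite direction, the glutathione transferase Gsta3 (1371089_at), which joins glutathione to reactive compounds, gave 338, 271, 309.9 and 290.5 against 129, 117.5, 118 and 103, tight in both strains, a difference of 1.26 (SE 0.19, adjusted p = 0.0064). Of 26 glutathione enzymes Gsta3 alone was called and the median was 0.01, and of 20 targets of the antioxidant factor Nrf2 0 were called (median 0.02). Inmt (1373975_at), a methyltransferase of small amines that is abundant in lung, gave 2437, 3523, 3073 and 1899.5 against 739, 764, 787 and 1413. A single Sprague Dawley array was high, though still below all hypertensive arrays, and the difference was 1.56 (SE 0.22, adjusted p = 0.0032). Of 9 club and secretory cell markers tested, Cyp2f4 was called lower and Gsta3 higher, 6 were below 0 and the median was -0.29. Their summed signals were 44975 to 49376 in hypertensive and 47373 to 64780 in Sprague Dawley arrays, with Scgb1a1 at a difference of -0.10. The part of club cells in these results was not tested.

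Among genes of the matrix and of immediate early signalling, Ccn1, Htra1 and Cela1 were higher in hypertensive rats. Ccn1 (1368290_at), a secreted matrix protein switched on within minutes by growth factors and injury, had signals of 498, 330.4, 691 and 277 in hypertensive and 81.9, 93.7, 69.6 and 82.7 in Sprague Dawley rats. The Sprague Dawley arrays were all below the 30th percentile of their arrays, so the log2 difference of 2.17 (SE 0.27, adjusted p = 0.0011) understates a change in a dim signal. The promoters of Ccn1 and Cxcl14, the genes outside the RT1 family with the largest differences upward under the naming rule (1 probe set per gene), are given with TATAAA or the AP-1 motif TGANTCA in capitals, the latter being in 2.47% of promoters.
Ccn1, chr2:237225690-237225789, minus strand: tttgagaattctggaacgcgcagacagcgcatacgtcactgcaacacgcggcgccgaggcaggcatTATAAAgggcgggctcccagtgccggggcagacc
Cxcl14, chr17:8323050-8323149, plus strand: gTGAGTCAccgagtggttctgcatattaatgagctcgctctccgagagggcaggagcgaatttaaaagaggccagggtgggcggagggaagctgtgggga
Of 25 immediate early genes Ccn1 alone was called, 16 were above 0 and the median was 0.16; its relative Ccn2 was at 0.49 (adjusted p = 0.58) and Egr1 at 0.35 (adjusted p = 0.74). The secreted protease Htra1 (1386884_at), which cuts matrix proteins, gave 1949.8, 1875.5, 1549.9 and 1662 against 1127, 1037, 1119.8 and 943, a difference of 0.72 (SE 0.12, adjusted p = 0.011). Without hypertensive SO2 replicate 2 its adjusted p was 0.050, with a difference of 0.69. Cela1 (1387819_at), an elastase, gave 1063, 1066, 742 and 1212 against 526.5, 326, 521 and 271, a difference of 1.31 (SE 0.22, adjusted p = 0.011). Timp3, an inhibitor of metalloproteases chosen after its values were seen, was called at 1 of 4 probe sets, at 0.61 (adjusted p = 0.028), and the other 3 were also above 0; its call was lost without each of 6 arrays in turn (adjusted p up to 0.10). In the list of 23 matrix proteases and inhibitors Htra1 alone was called (median 0.06). That list does not hold Cela1, and Timp3 stands in it by its brightest probe set, which was not called (0.48, adjusted p = 0.17). Of 40 elastic fibre, collagen and basement membrane genes 0 were called (median -0.02).

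Among muscle and energy genes, Ckmt1 and Tcap were higher in hypertensive rats. Ckmt1 (1390566_a_at), the mitochondrial creatine kinase of non-muscle cells, had signals of 680.1, 1086, 1277 and 856 against 248, 209, 192 and 441, a difference of 1.81 (SE 0.25, adjusted p = 0.0026). Tcap (1371554_at), a protein of the sarcomere of heart and skeletal muscle, had 471, 581, 504 and 636 against 191, 261, 261 and 297, a difference of 1.08 (SE 0.17, adjusted p = 0.0077). Lung samples can hold striated muscle of the pulmonary veins or heart. Of 24 striated muscle genes tested, 18 were above 0 (all genes: 4036 of 8060), Tcap alone was called and the median was 0.41, with Myh6 at 0.90 (adjusted p = 0.32) and Myl7 at 0.70 (adjusted p = 0.24). Summed signals of these genes were 9045 to 10810 in hypertensive and 7824 to 9577 in Sprague Dawley arrays. Their part in the difference of Tcap was not tested. In air the list's median was -0.03 without the Sprague Dawley array that goes against its label. Tpm1, a tropomyosin chosen after its values were seen, was called higher at 1 of 4 probe sets, at 0.87 (adjusted p = 0.031), while its brightest probe set was at -0.12 (adjusted p = 0.83). The call of Tpm1 was lost without each of 7 arrays in turn (adjusted p up to 0.11). Of 82 respiratory chain genes 0 were called (median 0.01).

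Several other named genes have no list in common. Terf2ip (1388780_at), a telomere-binding protein also called Rap1, was lower in hypertensive rats, with 389, 442.5, 276 and 437 against 3167, 2493, 2048 and 2054. The groups were far apart, by -2.61 (SE 0.18, adjusted p = 2.3e-06), a 6.32-fold higher mean in Sprague Dawley rats. Ooep (1389690_at), a protein known from the egg, gave 137, 152, 170.5 and 129 against 791, 458, 397 and 802, a difference of -1.88 (SE 0.23, adjusted p = 0.00098); with all 16 arrays in the fit it was not called (adjusted p = 0.089). The alpha globin gene Hba-a3 (1375519_at) gave 399, 627.5, 688 and 702.5 against 1385.5, 1972, 1246.5 and 1321, a difference of -1.28 (SE 0.19, adjusted p = 0.0058). Globin copies are near-identical. The list of 11 erythroid and platelet genes, which does not hold Hba-a3, gave no call (median -0.09, Hbb -0.42 with adjusted p = 0.21). Their summed signals of 12179 to 14702 in hypertensive arrays lay below the 15532 to 16212 of Sprague Dawley arrays, and their part in the result was not tested. Hyou1 (1371442_at), a chaperone of the endoplasmic reticulum, gave 316, 436, 510.1 and 426.5 against 992, 538, 1037 and 898, a difference of -0.99 (SE 0.21, adjusted p = 0.049). When 1 array was left out at a time, the call held only without Sprague Dawley SO2 replicate 2 and was lost without each of the other 7, with adjusted p up to 0.16. Of 32 heat shock and unfolded protein response genes Hyou1 alone was called (median 0.02).

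On the higher side, Fam107a (1373266_at), an actin-binding protein, gave 931, 813, 859 and 924 against 206, 692, 308 and 235. A single Sprague Dawley array lay close to the hypertensive ones, and the difference of 1.42 (SE 0.28, adjusted p = 0.034) kept its call only without that array, Sprague Dawley SO2 replicate 2, reaching an adjusted p of 0.13 without others. Mlc1 (1376702_at), a membrane protein of astrocytes, gave 398, 384, 397 and 312 against 89.1, 148, 208 and 124, a difference of 1.34 (SE 0.23, adjusted p = 0.013). Without hypertensive SO2 replicate 1, 2 or 3 its adjusted p was 0.051, 0.052 and 0.055, at differences of 1.31, 1.33 and 1.31. Tesc (1384202_at), a calcium-binding protein, gave 445, 578.5, 432 and 465 against 191, 158, 306 and 152, a difference of 1.23 (SE 0.21, adjusted p = 0.013), and 1.14 with an adjusted p of 0.060 without hypertensive SO2 replicate 2. Carriers and channels chosen after their values were seen were also called higher: the organic anion transporter Slco1a5 at 1.01 (adjusted p = 0.0031), the zinc importer Slc39a4 at 0.68 (adjusted p = 0.0091) and the ATP-gated channel P2rx4 at 0.78 (adjusted p = 0.047). The last lost its call without each of 6 arrays in turn.

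Of the genes fixed for their role, Suox and Ephx2 were not called. Suox, the sulfite oxidase, had signals of 373, 359.8, 351 and 366 against 316.5, 379, 328 and 186, overlapping, with a difference of 0.29 (SE 0.20, adjusted p = 0.73) that was 0.09 without Sprague Dawley SO2 replicate 4. Of 19 genes of sulfite and sulfur amino acid metabolism 0 were called and the median was 0.05. Ephx2, the soluble epoxide hydrolase that inactivates vasodilator lipids, had 238.5, 208, 324 and 226 against 195.5, 245, 180.4 and 174, overlapping, with a difference of 0.30 (SE 0.20, adjusted p = 0.74), and 0.17 without hypertensive SO2 replicate 3. Among 27 blood pressure and vasoactive genes 0 were called (median 0.07), with the angiotensin converting enzyme Ace at -0.05 and the endothelial nitric oxide synthase Nos3 at -0.03.

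Of the 39 gene lists, which were chosen with earlier results of these data known, 12 held a called member. Over all genes 52 of 8060 were called (0.645%), and the number of lists was not set against chance. T and natural killer cell markers leaned one way without a call: 17 of 18 were below 0 and the median was -0.29, with the cytotoxic granule proteins Prf1 at -0.84 (adjusted p = 0.22) and Nkg7 at -0.72 (adjusted p = 0.19). Ciliated cell markers were below 0 in 5 of 5 (median -0.25) and alveolar type II markers in 13 of 15 (median -0.05), both with 0 called. These leanings describe the lists and carry no test.

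**Figure D2:**
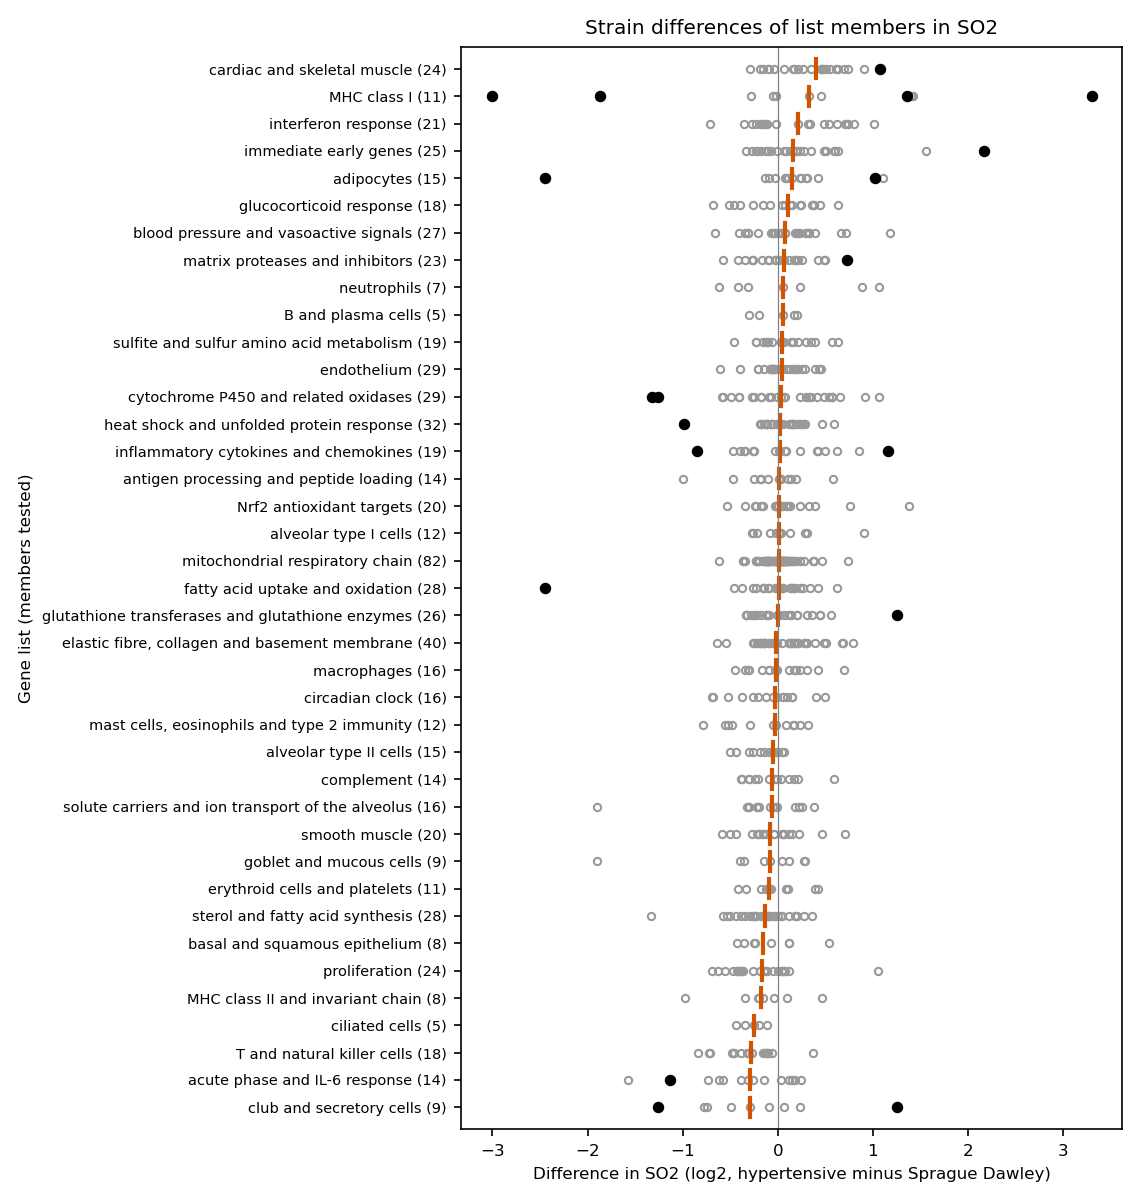
Difference in SO2 (log2, hypertensive minus Sprague Dawley) of every tested member of the 39 gene lists; filled points are called, open points are not, orange bars are list medians and numbers in brackets are members tested. Medians run from -0.29 (club and secretory cells, acute phase, T and natural killer cells) to 0.41 (cardiac and skeletal muscle), and called points stand out singly, with MHC class I on both sides.

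Most of the strain differences seen in SO2 pointed the same way in air. These are other arrays, so the comparison shares no sample with the one in SO2. With all 8 air arrays 0 probe sets were called by limma (0%), 808 had an unadjusted p under 0.05 (7.28%), and 77 of the 79 probe sets called in SO2 had the same sign, against 56.3% of all probe sets. Without Sprague Dawley air replicate 2, 62 were called (0.558%), 38 higher (0.342%) and 24 lower (0.216%). Of these, 29 were also called in SO2 in the same direction, which is 36.7% of the SO2 calls and 46.8% of the air calls, and 78 of the 79 shared the sign, against 55.7% of all. Air arrays of the strains did not overlap, in the direction of SO2, for 17 of the 79 with all arrays and for 51 without that array, where 4.02% and 11.3% of all probe sets did not overlap in either direction. The median difference of the 79, taken in the direction of SO2, was 1.15 in SO2, 0.84 in air without that array and 0.63 with it. Probe sets were called because they were far apart in SO2, so a smaller value in other samples is given by the choice and is not read as an effect of the gas. Sprague Dawley air replicate 2 was itself set aside for its values on strain-dependent genes, and lay nearer the hypertensive mean on 61 of these 79. The air calls, shared calls and absence of overlap found without it are therefore in part given by that choice.

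**Figure D3:**
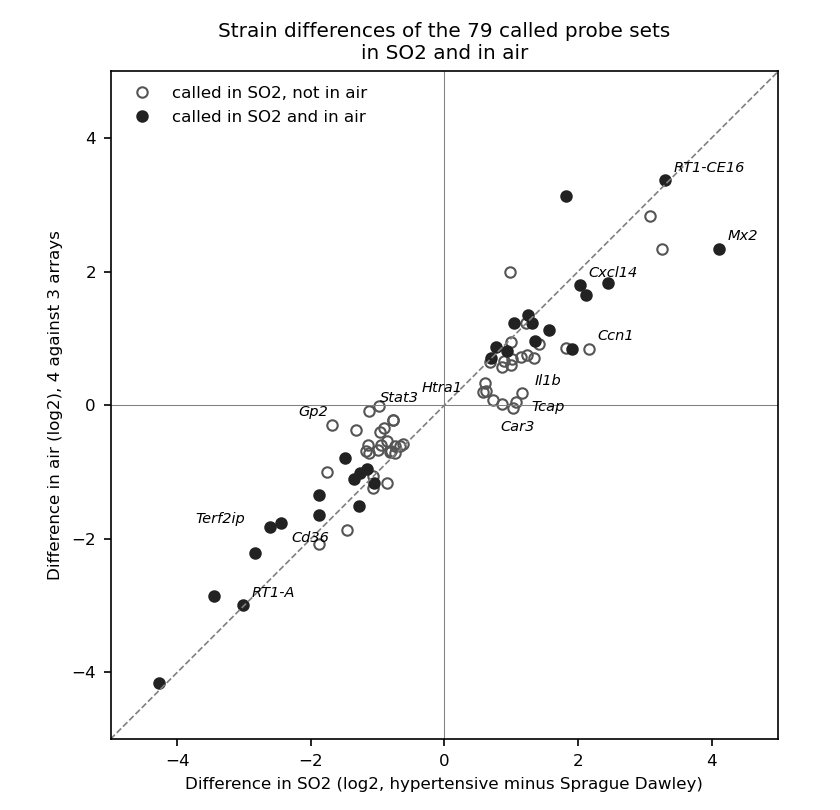
Strain difference in SO2 (x axis) against that in air without Sprague Dawley air replicate 2 (y axis), both log2, hypertensive minus Sprague Dawley, for the 79 probe sets called in SO2; filled points were called in both and the dashed line marks equal values. RT1-CE16 (3.31 and 3.37) and RT1-A (-3.01 and -2.99) lie on the line, while Il1b, Tcap, Car3, Htra1, Stat3 and Gp2 lie near 0 in air.

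Several of the genes with large differences in SO2 had differences of the same sign in air, close in size for some and not for others. Without Sprague Dawley air replicate 2, RT1-CE16 was at 3.37 (adjusted p = 0.0041), RT1-A at -2.99 (adjusted p = 0.0057), RT1-T24-4 at -1.65 (adjusted p = 0.00023), and Terf2ip at -1.83 (adjusted p = 0.00084). Cd36 was at -1.76 (adjusted p = 0.033), Cyp2f4 at -1.01 (adjusted p = 0.01), Gsta3 at 1.35 (adjusted p = 0.016) and Cxcl14 at 1.80 (adjusted p = 0.00023). Each of these 8 was called in SO2 and in air without that array, and none was called in air with it. With it kept the air differences were smaller, such as 2.485 for RT1-CE16, -2.23 for RT1-A, -1.42 for Terf2ip and -1.43 for Cd36. Mx2, dim in Sprague Dawley rats in SO2, had air signals of 577, 847, 946 and 741 in hypertensive and 117, 653, 72.2 and 293 in Sprague Dawley rats, and a difference of 2.35 (adjusted p = 0.016) without replicate 2. Also called in air without replicate 2, and not with it, were Defb4 at -0.78 (adjusted p = 0.026), Cd300c2 at -1.11 (adjusted p = 0.0041) and Hba-a3 at -1.51 (adjusted p = 0.035). The same held for RT1-A3 at 0.96 (adjusted p = 0.026), Inmt at 1.13 (adjusted p = 0.028) and Cela1 at 1.23 (adjusted p = 0.026). Ccn1 at 0.85 (adjusted p = 0.33), Ckmt1 at 0.85 (adjusted p = 0.13), Ooep at -2.08 (adjusted p = 0.074) and Cx3cl1 at -1.16 (adjusted p = 0.074) had the sign of SO2 and were not called.

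Another group of genes called in SO2 was near 0 in air. Il1b had air signals of 536, 667, 454 and 385 in hypertensive and 539, 513, 401 and 393 in Sprague Dawley rats, which overlap, and a difference of 0.18 (adjusted p = 0.77) without replicate 2. Car3 had 326, 289, 388 and 341 and 338, 352, 414 and 292 in air, a difference of -0.04 (adjusted p = 0.95). Stat3 had 1777, 1877.5, 1838 and 1812.5 and 2247, 2150.2, 2069 and 1554, a difference of -0.08 (adjusted p = 0.86). For Tcap the air difference was 0.04, for Htra1 0.08, for Hyou1 -0.01, for Gp2 -0.29 and for Tpm1 0.01, and none was called in air. Cyp2a3 was at -0.37 in air (adjusted p = 0.51), beside its neighbour Cyp2f4 at -1.01. The difference between the SO2 and air values was tested over all 16 arrays, and 0 of 11106 probe sets were called by limma (0%; 516, or 4.65%, had an unadjusted p under 0.05). Car3 came nearest among the 79, at 1.07 (SE 0.21, adjusted p = 0.45), with Il1b at 1.04 (adjusted p = 0.96) and Stat3 at -1.01 (adjusted p = 0.96). A difference called in SO2 and not in air is therefore not shown to depend on the gas for any gene.

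Placing each array between the SO2 means of the strains over the 79 probe sets (0 for hypertensive, 1 for Sprague Dawley, median over probe sets) put the hypertensive air arrays at 0.259, 0.202, 0.05 and 0.193. Sprague Dawley air arrays 1, 3 and 4 were at 0.872, 0.947 and 0.872, and array 2 was at 0.319. On the Terf2ip probe set the last had a signal of 694, against 1982 to 2363 in the other Sprague Dawley air arrays and 425 to 733 in hypertensive air arrays. On RT1-A it had 151 against 841 to 2154. Why this array goes against its label was not tested.

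**Figure D4:**
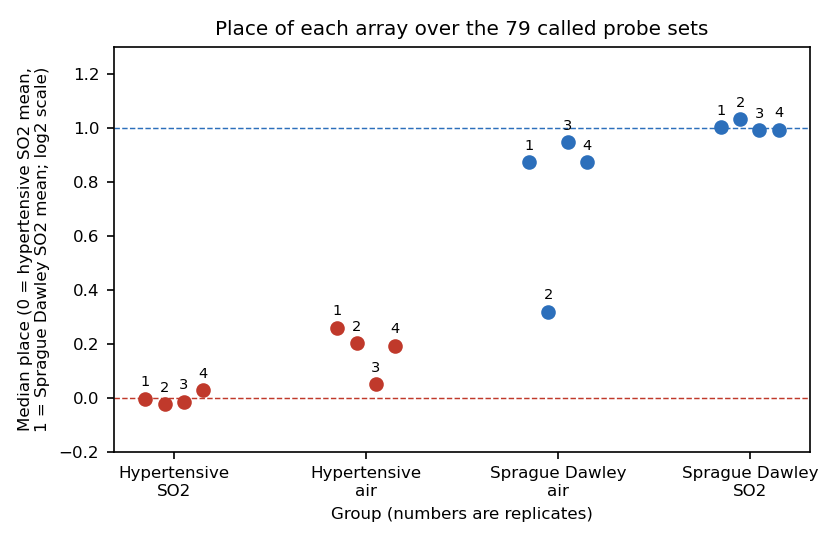
Median place of each of the 16 arrays over the 79 called probe sets on the log2 scale, with 0 at the mean of hypertensive and 1 at the mean of Sprague Dawley arrays in SO2; numbers are replicates. The SO2 arrays sit at 0 and 1 because they define the scale, and Sprague Dawley air replicate 2 sits at 0.319 among the hypertensive side.

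Where a gene had several probe sets they often disagreed. Of the 60 symbols with a called probe set, 47 had 1 tested probe set and 13 had several. All probe sets were called for 1 gene, Isca1, an iron-sulfur cluster assembly protein, at -0.82 (1388603_a_at; adjusted p = 0.034) and -1.05 (1388613_at; adjusted p = 0.0059). The first of these calls was lost without each of 7 arrays in turn (adjusted p up to 0.12), while the second held without each of the 8. Of 18 further probe sets of the other 12 genes, 10 had the same sign as the called one, and 6 genes had a probe set of opposite sign. Car3, Hyou1, Stat3, Timp3, Mx2 and Trak2 kept one sign over all their probe sets, though their further probe sets were not called. The sizes lay far apart for Mx2 (4.11 and 0.80) and Trak2 (0.99 and 0.26), so the size at the called probe set is not shown for the gene. Ythdf2, a reader of methylated RNA chosen after its values were seen, had 104, 137, 132 and 129.5 against 518, 537, 426 and 533 at the called probe set, a difference of -1.88 (SE 0.17, adjusted p = 5.9e-05), and 0.13 (adjusted p = 0.93) at the other. Dusp6, Csnk2a1, Tpm1, Adgrl2 and RT1-Ba also had a probe set on the other side of 0. A called difference of these 6 genes is one of that probe set, and not shown for the gene.

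**Figure D5:**
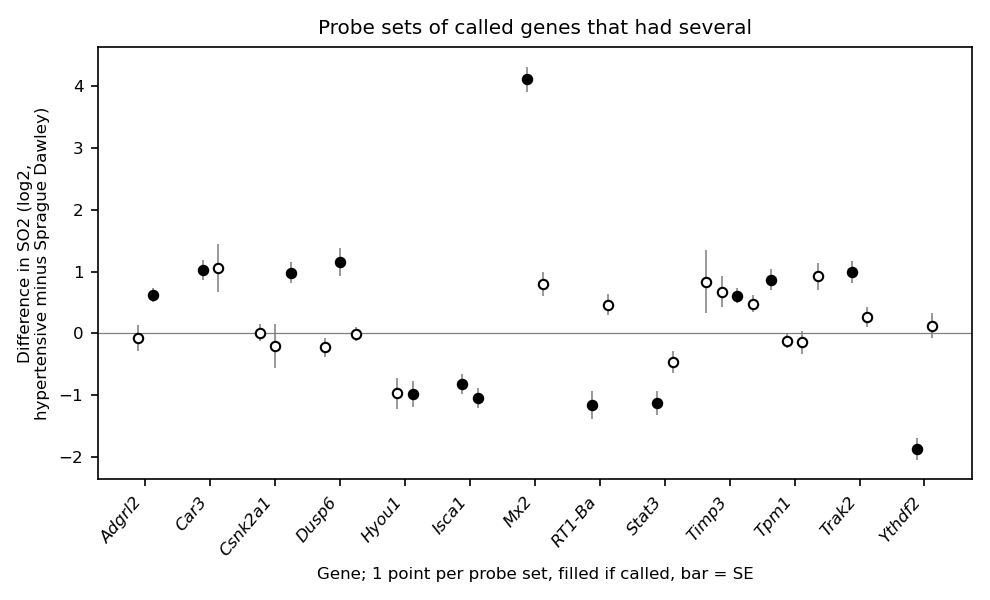
Difference in SO2 (log2, hypertensive minus Sprague Dawley) of each tested probe set of the 13 called genes that had several; filled points are called, open points are not, and bars are SE. The Mx2 probe sets stand at 4.11 and 0.80, and those of Ythdf2 at -1.88 and 0.13.

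Of the 79 called probe sets, 61 had 1 symbol, 4 had several and 14 had none here. Those without a single symbol include large differences. Probe set 1389990_at was at 3.26 (adjusted p = 1.7e-07, means 2651 against 270) and 1384218_at at 3.08 (adjusted p = 0.0087). Neither was called in air without Sprague Dawley air replicate 2, at 2.34 (adjusted p = 0.27) and 2.84 (adjusted p = 0.092). In SO2, 1370428_x_at was at -4.27 (adjusted p = 1.3e-06, means 213 against 4741) and 1386901_at at -3.46 (adjusted p = 1.6e-08). Both were called in air without that array, at -4.16 (adjusted p = 0.016) and -2.86 (adjusted p = 0.026). Spread within groups was close between the strains over all probe sets, with a median SD on the log2 scale of 0.23 in hypertensive and 0.24 in Sprague Dawley arrays, and 53.3% of probe sets wider in Sprague Dawley. Among the 79 called, 51 were wider in Sprague Dawley arrays, with medians of 0.192 and 0.254. Of 8039 tested genes placed on the chromosomes of GRCr8, 59 were called. Among these, Cyp2a3 and Cyp2f4 had 0 tested genes between them, Rab8b and Tpm1 had 1, and Smim19 and Defb4 had 3. No further pair had 4 or fewer, and the number of pairs was not set against chance.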

How the data were processed

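Lung RNA of 16 samples was measured on 1 array design. Per the submitters' processing notes the software was GCOS, whose version and algorithm no source used here gives. The authors deposited a linear intensity for each probe set on each array. Leaving out the extreme 2% at either end, array means ranged only from 500.099 to 500.111, and no further scaling was applied. Of 15923 probe sets, 57 controls were left out. Names came from the platform annotation (12783 of 15866 probe sets with 1 symbol, 312 with several and 2771 with none here), with 12754 matched by Entrez identifier to RefSeq's table of GRCr8 and 0 symbols changed. The dimmest 30% by mean over 16 arrays (the dimmest kept had a mean signal of 109) were dropped, leaving 11106.

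Values were log2(intensity + 16), which understates changes of dim probe sets. The SO2 and air comparisons were each fitted on their own 8 arrays, and their difference on all 16, with limma 3.58.1 in R 4.3.3 (lmFit, eBayes with trend), with Benjamini-Hochberg adjustment and calls at an adjusted p under 0.05. The number of arrays limits the precision. On simulated data the SO2 fit called 17 of 67 probe sets shifted by 0.5, 49 of 67 shifted by 1 and 65 of 66 shifted by 2 on the log2 scale, with 12 false calls. Probes are short, so a signal can also differ where strain sequences differ, which was not tested. Figures used matplotlib 3.10.9.

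Members and lists were chosen with earlier results of these data known. Named genes were, at 1 probe set per gene (highest mean), the 12 largest differences each way among called genes without overlap between groups, up to 3 called members of smallest p from each of 39 lists, and Terf2ip, Cd36, Ephx2 and Suox: 32 genes, of which 30 were called. Other genes are said to be chosen after their values were seen. Lists were described by counts and medians without a test. Alternatives were other offsets (1 and 64), filters, scalings, eBayes settings, array weights, covariates, more arrays, averaged probe sets, a replicate block and each array left out in turn. Detection calls were not used here. Promoters came from RefSeq's table of GRCr8, which held 53 of the 60 called symbols.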

Additional observations from a re-analysis of the deposited data

Results flagged for a closer look

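In 5 of 64 groups of 4 arrays checked for the named genes, 1 array stood apart from the other 3 (by Dixon's ratio of gap to range). Chance gives about 1 in 20 groups. Inmt in Sprague Dawley SO2 replicate 4 had a signal of 1413.2, above the others at 739.2 to 787.4. Mlc1 in hypertensive SO2 replicate 4 had 312.0, below the others at 384.1 to 397.9. Defb4 in Sprague Dawley SO2 replicate 4 had 21204.9, above the others at 16080.6 to 16846.4. Cyp2f4 in hypertensive SO2 replicate 1 had 838.4, above the others at 567.4 to 600.4. Stat3 in Sprague Dawley SO2 replicate 2 had 2994.8, above the others at 2489.1 to 2549.8. For Inmt, Defb4 and Cyp2f4 the call held without each of the 8 SO2 arrays in turn.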

How the results depend on the processing

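No named or called difference changed sign under any alternative in which it had a value. These were 23 fits, the fit with the probe sets of a gene averaged and, for named genes, the ratio of mean signals, which has a direction and no test. Of their 1947 values, 1613 kept their direction and, where tested, their side of the threshold, and 334 lost the call. Among the named genes, RT1-CE16, Fam107a, Car3, Htra1, Cx3cl1, Hyou1, Stat3, Cyp2a3, Gp2, Krt79 and Ooep lost the call under at least 1 alternative other than the block or an array left out, with adjusted p from 0.050 to 0.14; the cause was not tested. Of the 79 calls, 31 held under each of the 23 fits and 42 without each of the 8 SO2 arrays in turn. The total called ran from 51 to 90 over arrays left out (24 to 44 higher, 25 to 46 lower). With the actin ratio as a covariate it was 126 (63 higher, 63 lower), with 15 arrays 60 were higher, and with the probe sets of a gene averaged 25 were higher. With the 10th percentile of signal as a covariate 78 were called, and with the number in the sample title 67, of which 71 and 63 were among the 79. Title numbers partly follow strain: 47 to 50 for Sprague Dawley SO2 arrays, and 44 and 51 to 53 for hypertensive ones. Without a trend in eBayes 56 were called, without a filter 63, with arrays centred on their medians 72, with quantile normalization 78 and with all 16 arrays 90; of these 52, 60, 71, 74 and 66 were among the 79. In air the count was 0 in every alternative except 15 arrays (86) and without Sprague Dawley air replicate 2 (62), so that leaving out an air array gave 0 to 62. The difference between SO2 and air gave 0 under every alternative. The same-sign count in air was 63 to 78, with arrays left out 74 to 78. For every named gene the ratio of mean signals had the direction of the log2 difference.

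The replicate numbers are in the labels of both groups, but same-numbered arrays did not deviate together: their correlations were -0.152, -0.249, -0.002 and -0.219. The numbers were thus not taken as pairs. With the replicate block 49 probe sets were called, 25 higher and 24 lower, of which 45 were among the 79; in air and for the difference the block gave 0.

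With 4 arrays per group and no detection calls, differences near 0.5 on the log2 scale were mostly below reach, and low signals have no stated floor.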

Other observations

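The called genes not yet described were chosen after their values were seen. Lower in hypertensive rats, each as a single gene and not as a tested group, were the chaperonin subunit Cct6a at -0.997 (adjusted p = 0.0033), with signals of 534.7, 610.3, 462.7 and 604.8 against 1115, 1245, 1180.4 and 937.8, the DNA repair protein Xrcc5 at -0.81 (adjusted p = 0.021), the autophagy protein Atg13 at -0.74 (adjusted p = 0.034), the mitochondrial ribosomal protein Mrpl4 at -0.73 (adjusted p = 0.047) and Aldh4a1, an enzyme of proline breakdown, at -0.94 (adjusted p = 0.013). Cbx7, a chromatin-binding Polycomb protein, was at -0.97 (adjusted p = 0.015) and Brms1l at -0.77 (adjusted p = 0.0087). Also lower were Rab8b, a GTPase of membrane traffic, at -1.14 (adjusted p = 0.021), Tmod3, which caps actin filaments, at -0.76 (adjusted p = 0.014) and Tmem176b at -0.85 (adjusted p = 0.046). The first of these, Cct6a, was called without each array in turn, as was Brms1l, while the calls of Xrcc5, Atg13, Mrpl4, Rab8b and Tmem176b were lost without 5 to 7 arrays in turn, those of Cbx7 and Tmod3 without 3 and that of Aldh4a1 without 1.

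On the higher side, Dlk1, a membrane protein that holds back fat cell formation, was at 1.00 (adjusted p = 0.047), Trak2, which ties mitochondria to motors, at 0.99 (adjusted p = 0.014), Cdr2 at 0.86 (adjusted p = 0.013), Gask1b at 0.70 (adjusted p = 0.021) and Smim19 at 0.57 (adjusted p = 0.0497), the last losing its call without any one of the 8 arrays. The call of Dlk1 was lost without each of 7 arrays in turn (adjusted p up to 0.13), that of Gask1b without 5 (up to 0.088), that of Trak2 without 3 (up to 0.056) and that of Cdr2 without 1 (0.051). All p-values are from limma. In air without Sprague Dawley air replicate 2, Gask1b was also called, at 0.70 (adjusted p = 0.027), and Brms1l was at -0.21 (adjusted p = 0.57), with hypertensive signals of 1927, 1841, 1588 and 2287 against 2154, 1806, 2292 and 2160.3.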
